A study of Rattus norvegicus with 6 samples.

Results

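The genes described here build, load and move cilia. They are the protein-coding genes whose symbols begin with Ift, Bbs, Cfap, Dnah, Dnai, Dnal or Dnali followed by a digit, which took 63 of the 34510 genes in the deposited table and of its 22250 protein-coding genes. The choice used symbols and gene class and no measured value, and 1 further gene with a matching symbol was not protein-coding. The 63 genes were 13 intraflagellar transport (IFT) genes, 8 Bardet-Biedl syndrome (BBS) genes, 27 cilia and flagella associated protein (Cfap) genes and 15 genes for subunits of axonemal dynein (Dnah, Dnai, Dnal and Dnali).

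Poly(A) RNA was sequenced from cultured ventricular heart muscle cells of newborn rats, in 3 libraries labelled Bgal and 3 labelled Trim28. By the series' design text the cells received an adenovirus carrying TRIM28, a chromatin corepressor. What Bgal stands for, the virus of that group, the rat strain, the dose and the time are not in the labels. Nor do they tell whether libraries came from separate cultures, so each p-value reflects the spread among these 6 libraries alone, and that spread may be technical.

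Trim28 was at 81.6, 87.8 and 77.6 FPKM (fragments scaled by gene length and by library total) in Bgal libraries 1 to 3 and at 2923, 2890 and 980.03 FPKM in Trim28 libraries 1 to 3. All 3 Trim28 libraries were above every Bgal library, with replicate 3 at the lowest level of its group. Between 26146166 and 34593292 reads per library were recovered from the FPKM values. The 9 cardiomyocyte markers found in the table had mean levels of 137 (Nkx2-5) to 7366 FPKM (Actc1), and 4 were higher and 3 lower in Trim28 libraries (limma). Markers of other cells were present too. Summed over the list, fibroblast markers were at 668 to 719 FPKM in Bgal and 1036 to 1100 FPKM in Trim28 libraries, mural cell markers at 762 to 1019 and 1624 to 1722, leukocyte markers at 27.3 to 27.5 and 64.6 to 66.3, and cell cycle genes at 126 to 132 and 101 to 105. In limma, 7 of 10 fibroblast and 8 of 9 mural markers were higher in Trim28 libraries, and 12 of 17 tested cell cycle genes were lower. Of 10 leukocyte markers 6 were tested, and these were higher. Kcnj8 among the mural and Adgre1 among the leukocyte markers were tested only through their level in Trim28 libraries, which favours a higher call. Of 7 endothelial markers 3 were tested, with Eng and Tek higher and Kdr lower, and the other 4 did not pass in limma-voom. Epicardial and mesothelial markers summed to 27.2 to 31.7 FPKM in Bgal and 34.6 to 38.4 FPKM in Trim28 libraries. Of these 10 markers, all tested, 5 were higher and 3 lower in limma. These marker levels moved with the groups, and their part in the differences between the cilium genes was not tested. In bulk libraries, fewer cells of a type and less RNA per cell cannot be told apart.

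A cilium is a thin projection of the cell surface, held up by a shaft of microtubule doublets called the axoneme. IFT-B particles and a kinesin motor carry building material to the tip, and IFT-A particles and a cytoplasmic dynein bring it back, while the BBSome, a coat-like complex of BBS proteins, moves membrane receptors in and out. Most cells, young heart muscle cells and heart fibroblasts among them, carry at most a single immotile primary cilium that serves as an antenna for signals such as Hedgehog. Motile cilia and sperm tails also need axonemal dynein arms, the motors that slide the doublets, and many Cfap proteins that line or decorate them.

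Many ciliary genes carry an X-box in the promoter, the palindromic site that RFX transcription factors bind, and the RFX gene Rfx2 rose in these data (below 2 FPKM in every Bgal library and above 11 FPKM in every Trim28 library). Promoters in which the site was spelled out in full are therefore shown. Promoters from RefSeq (assembly GRCr8, 250 bases before to 50 after the gene start) were found for 53 of the 63 genes. They were searched for GTTNC followed by 3 or 4 bases of any kind and then GNAAC, a pattern that reads the same on both strands and was set after promoters of these genes had been seen. Capitals mark the match in each sequence.
Cfap298, chr11:43677586-43677627, minus strand: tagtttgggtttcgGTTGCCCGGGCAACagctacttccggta
Cfap45, chr13:87521804-87521831, plus strand: agtgctgggtcttgGTTGCTGTGGTAAC
Cfap44, chr11:69789906-69789936, minus strand: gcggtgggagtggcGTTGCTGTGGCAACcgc
Dnah7, chr9:62756616-62756653, minus strand: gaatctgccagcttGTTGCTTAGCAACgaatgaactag
Dnah9, chr10:51364056-51364096, minus strand: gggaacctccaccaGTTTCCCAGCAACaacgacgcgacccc
Dnai1, chr5:61525966-61526006, plus strand: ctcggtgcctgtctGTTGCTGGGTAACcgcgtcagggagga
Dnai2, chr10:100258946-100258986, plus strand: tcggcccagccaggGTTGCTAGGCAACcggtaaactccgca
In all, 8 of the 53 genes held a match, or 15.1%, against 532 of the 27457 genes with a RefSeq promoter, or 1.94%. The 27457 were not limited to protein-coding genes. Some genes had more than 1 promoter, and by promoter the matches were 8 of 78 and 607 of 33469. A pattern set with promoters of the 53 genes in view favours a higher share in them, so the contrast is not an independent count. By group the 8 genes were 5 of 12 Dnah and Dnai genes, 3 of 21 Cfap genes, 0 of 17 IFT and BBS genes and 0 of 3 Dnal and Dnali genes. Among genes tested between the groups, matches stood before 1 of 4 with a higher level in Trim28 libraries (Cfap45), 1 of 3 with a lower level (Cfap298) and 0 of 22 that did not pass. The other 6 stood before genes that were too low to be tested. A match is a description of the letters, and its absence says nothing about binding.

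The transport genes were all present in these cells, and the dynein motor genes nearly all lay at the edge of detection. Over the 6 libraries, each of the 21 IFT and BBS genes had a mean of at least 1 FPKM, and 5 had at least 10. Of the 27 Cfap genes, 11 reached 1 FPKM, 4 lay between 0.1 and 1, 9 above 0 and under 0.1, and 3 were at 0 in every library. Of the 12 Dnah and Dnai genes, 11 lay under 0.1 FPKM and Dnah17 alone was above it, at 0.2997. The light chain genes Dnal4 and Dnal1 were at 5.72 and 4.46 FPKM, while Dnali1 was at 0.0137.

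The gene with the highest mean was Ift43, at 73.5 FPKM, above 95.4% of protein-coding genes. Cfap298 came next at 18.9 FPKM, followed by Cfap20 at 18.7 and Ift20 at 16.4. Cfap298 and Cfap20 did not differ beyond their spread, since their libraries ran from 14.8 to 24.1 and from 15.8 to 21.6 FPKM. The genes at 0 were Cfap161, Cfap58 and Cfap58l1, for which 3 reads, the limit a count of 0 allows, equal up to 0.0822, 0.0358 and 0.0342 FPKM, counting error only. A filter of at least 0.5 FPKM in at least 3 libraries left 36 of the 63 genes for testing: 13 IFT, 8 BBS, 13 Cfap and 2 Dnal genes. Just outside it lay Cfap100 (mean 0.4699 FPKM, 2 libraries past the level) and Dnah17, and just inside it Cfap70 (0.621) and Cfap69 (0.783).

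**Figure D1:**
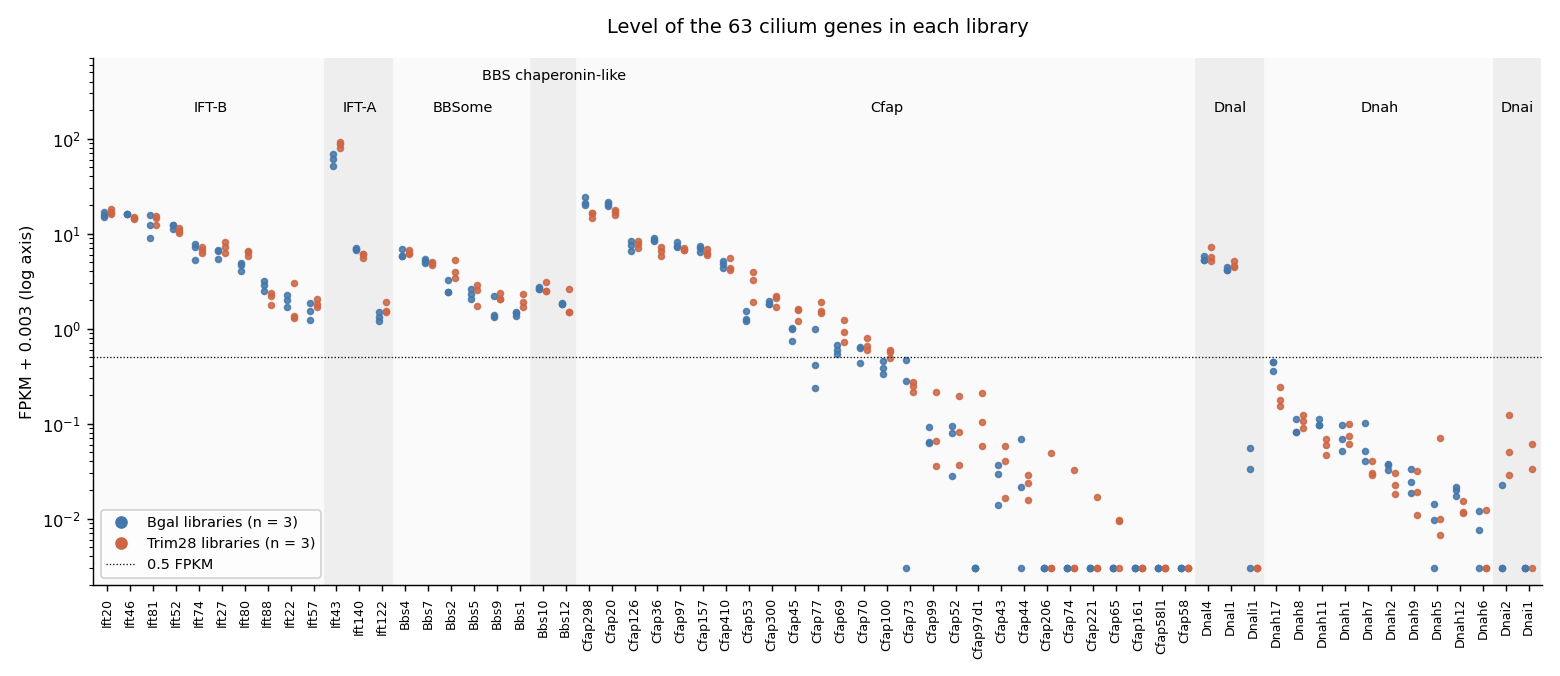
Level of each of the 63 genes in each library, as FPKM + 0.003 on a log axis, by gene group, with Bgal libraries in blue and Trim28 libraries in orange and the filter of 0.5 FPKM as a dotted line. All IFT and BBS genes lie above the line, and the Dnah and Dnai genes lie below it.

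Against the 3 Bgal libraries, 6 of the 36 tested genes were higher in the 3 Trim28 libraries, 3 were lower and 27 did not pass the test (limma on log2(FPKM + 1), Benjamini-Hochberg adjusted p under 0.05 over all 14808 genes tested). Over all tested genes, 20.1% were higher and 21.1% were lower by the same test, so the share of cilium genes that passed was no larger than the background. The higher genes were Ift43, Ift80, Bbs2, Cfap53, Cfap45 and Cfap77, and the lower genes were Cfap298, Cfap20 and Cfap36. Without Trim28 replicate 1, 3 genes were higher (Ift43, Ift80 and Cfap77). The median log2 difference over the 36 genes was 0.05, with a range of -0.42 to 0.78, against a median of -0.02 over all tested genes. Without regard to the test, all 3 Trim28 libraries lay above all 3 Bgal libraries in 10 of the 36 genes and below them in 7, against 26.0% and 27.7% of all tested genes.

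Limma-voom on the recovered reads, run as an alternative on genes with at least 10 reads in at least 3 libraries, tested 44 of the 63 genes. It called 7 higher and 6 lower, against backgrounds of 21.2% higher and 21.0% lower among 15850 genes. Its 13 calls held all 9 calls above, and added Bbs1 as higher and Ift88, Ift140 and Dnah17 as lower.

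**Figure D2:**
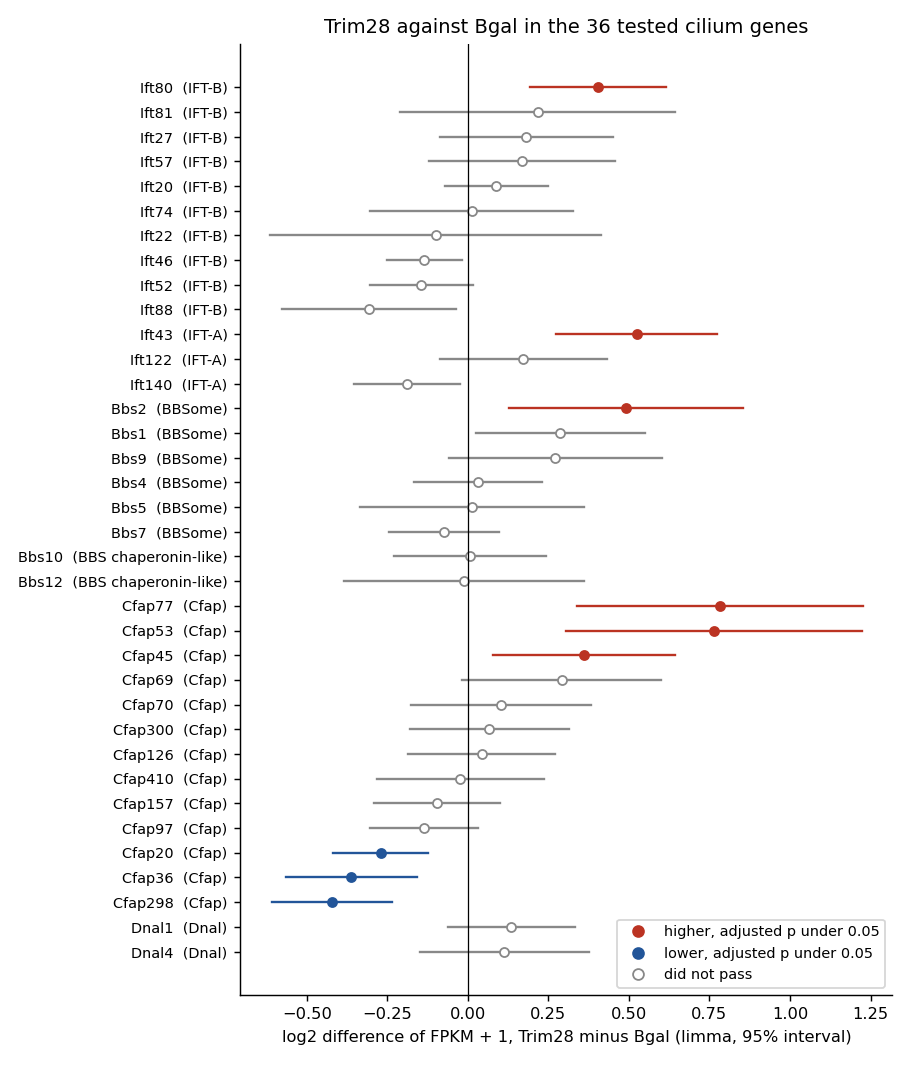
Log2 difference of FPKM + 1 between Trim28 and Bgal libraries for the 36 tested genes (points), with 95% limma intervals (lines) and filled points for adjusted p under 0.05. The 6 higher and 3 lower genes lie on both sides of 0. The widest difference was 0.78 (Cfap77), on a scale that understates changes of low genes. In limma-voom the log2 difference of Cfap77 was 1.77.

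Of the 13 IFT genes, 2 rose (15.4%), 0 fell and 11 did not pass, against 20.1% higher and 21.1% lower of all tested genes. Ift43, a subunit of the IFT-A particle (ENSRNOG00000010194, chr6:109939345-110016644, plus strand, here and below in the coordinates of the deposited table, with its build not named in the sources used here), was at 51.04, 61.6 and 68.3 FPKM in Bgal libraries 1 to 3 and at 79.8, 87.2 and 93.2 FPKM in Trim28 libraries 1 to 3. Every Trim28 library lay above every Bgal library. The means were 60.3 ± 8.68 and 86.7 ± 6.72 FPKM (SD, n = 3 each), a 1.44-fold rise (log2 difference of 0.52, SE 0.11, 95% interval 0.27 to 0.77, limma adjusted p = 0.00694). Ift80, a subunit of the IFT-B particle (ENSRNOG00000009808, chr2:165505810-165600748, minus strand), was at 4.71, 4.001 and 4.86 FPKM in Bgal libraries 1 to 3 and at 6.59, 5.87 and 6.45 FPKM in Trim28 libraries 1 to 3. Its groups did not overlap either, and its mean rose 1.39-fold, from 4.53 ± 0.4599 to 6.301 ± 0.382 FPKM (log2 difference of 0.40, SE 0.09, 95% interval 0.19 to 0.62, limma adjusted p = 0.0104). Both passed in all 14 settings tried.

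The other IFT-B genes gave no call in this test. Ift20, which also works at the Golgi, was at 15.9 ± 0.988 against 16.9 ± 1.05 FPKM, limma adjusted p = 0.337. Ift81, which binds tubulin with Ift74, was at 12.3 ± 3.37 against 14.2 ± 1.74 FPKM, limma adjusted p = 0.378, with Bgal library 2 at 8.91 and Bgal library 3 at 15.7 FPKM. Ift46, of the IFT-B core, showed a small gap, with Bgal libraries at 16.3, 16.2 and 15.96 and Trim28 libraries at 14.9, 14.7 and 14.2 FPKM. The limma adjusted p of 0.0632 missed the threshold.

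Ift88, the core IFT-B subunit whose loss removes cilia, was at 2.51, 3.15 and 2.904 FPKM in Bgal libraries 1 to 3 and at 2.22, 1.77 and 2.36 FPKM in Trim28 libraries 1 to 3. All 3 Trim28 values were below the Bgal values. It did not pass in the FPKM test (log2 difference of -0.31, SE 0.12, 95% interval -0.58 to -0.04, limma adjusted p = 0.0683), and was lower in limma-voom (log2 difference -0.42, adjusted p = 0.0462). Of the IFT-A genes, Ift140 was at 6.88 ± 0.183 against 5.92 ± 0.317 FPKM, limma adjusted p = 0.0674, and Ift122 was at 1.34 ± 0.136 against 1.64 ± 0.225 FPKM, limma adjusted p = 0.252. Ift140 was called lower in limma-voom (adjusted p = 0.0292). It is overlapped on the opposite strand by Tmem204, at 3.803 ± 0.444 against 7.85 ± 0.561 FPKM, and no source used here names the strand setting of the authors' counting. Ift52, Ift74, Ift27, Ift22 and Ift57 had means of 1.69 to 11.3 FPKM and log2 differences of -0.14 to 0.18, none of which passed.

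Of the 8 BBS genes, 1 rose (12.5%), 0 fell and 7 did not pass, against 20.1% higher and 21.1% lower of all tested genes. Bbs2, a BBSome subunit that pairs with Bbs7 (ENSRNOG00000019020, chr19:11386024-11421498, plus strand), was at 3.21, 2.42 and 2.43 FPKM in Bgal libraries 1 to 3 and at 3.98, 5.304 and 3.37 FPKM in Trim28 libraries 1 to 3. The groups did not overlap, and Trim28 library 2 stood highest. The means were 2.69 ± 0.454 and 4.22 ± 0.987 FPKM, a 1.57-fold rise (log2 difference of 0.49, SE 0.16, 95% interval 0.13 to 0.85, limma adjusted p = 0.0385). The call rests on several libraries: the adjusted p was 0.107, 0.108, 0.0754 and 0.0975 in limma without Bgal replicate 2, Bgal replicate 3, Trim28 replicate 1 and Trim28 replicate 2.

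Bbs1, the BBSome subunit that binds the small GTPase Arl6, was at 1.34, 1.46 and 1.49 FPKM in Bgal libraries 1 to 3 and at 1.91, 2.33 and 1.698 FPKM in Trim28 libraries 1 to 3. Its groups did not overlap, and it did not pass in the FPKM test (log2 difference of 0.29, SE 0.11, 95% interval 0.02 to 0.55, limma adjusted p = 0.0776) but was higher in limma-voom (log2 difference 0.45, adjusted p = 0.0338). Bbs4 was at 6.24 ± 0.627 against 6.39 ± 0.2797 FPKM, limma adjusted p = 0.791. Bbs7 was at 5.16 ± 0.224 against 4.85 ± 0.167 FPKM, limma adjusted p = 0.453, and is overlapped on the opposite strand by Exosc9, at 18.6 ± 0.693 against 17.4 ± 1.72 FPKM. The chaperonin-like genes Bbs10 and Bbs12, whose proteins help to assemble the BBSome, were at 2.65 ± 0.0817 against 2.67 ± 0.366 FPKM, limma adjusted p = 0.964, and at 1.84 ± 0.0216 against 1.86 ± 0.655 FPKM, limma adjusted p = 0.96. In Bbs12 the Trim28 libraries were at 1.48, 1.49 and 2.62 FPKM, on both sides of the Bgal values. Bbs5 and Bbs9 had log2 differences of 0.01 and 0.27. Bbs9 passed only when Bgal replicate 3 was left out (limma adjusted p = 0.0335).

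Of the 13 tested Cfap genes, 3 rose, 3 fell and 7 did not pass. The 23.1% in each direction lay near the 20.1% higher and 21.1% lower of all tested genes. The 3 that rose lay under 4 FPKM, and their proteins sit on or inside the doublets of motile cilia. Cfap53, which is needed for left-right patterning (ENSRNOG00000014585, chr18:70263359-70329907, plus strand), was at 1.19, 1.54 and 1.26 FPKM in Bgal libraries 1 to 3 and at 3.29, 3.94 and 1.895 FPKM in Trim28 libraries 1 to 3. Trim28 library 3 was the lowest of its group and still above every Bgal library. The mean rose 2.29-fold, from 1.33 ± 0.186 to 3.04 ± 1.05 FPKM (log2 difference of 0.76, SE 0.20, 95% interval 0.30 to 1.22, limma adjusted p = 0.0179). It passed in 10 of 14 settings. In limma its adjusted p was 0.0575, 0.0532, 0.0573 and 0.0508 without Bgal replicate 1, Bgal replicate 3, Trim28 replicate 1 and Trim28 replicate 2.

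Cfap77, a protein of the doublet lumen (ENSRNOG00000028805, chr3:7508496-7632345, minus strand), was at 0.999, 0.414 and 0.233 FPKM in Bgal libraries 1 to 3 and at 1.89, 1.44 and 1.52 FPKM in Trim28 libraries 1 to 3. These values rest on 62, 21 and 14 reads and on 92, 66 and 76 reads. The groups did not overlap, and Bgal library 1 stood nearest to the Trim28 libraries. Only 1 of 3 Bgal libraries reached the filter of 0.5 FPKM. The gene was therefore tested because of its level in Trim28 libraries, which favours a higher call. The mean rose 2.94-fold, from 0.549 ± 0.4001 to 1.62 ± 0.2396 FPKM (log2 difference of 0.78, SE 0.19, 95% interval 0.34 to 1.23, limma adjusted p = 0.014), and it passed in all 14 settings. Cfap45, another lumenal protein and, like Cfap298, a tested gene with a match to the X-box pattern (ENSRNOG00000008492, chr13:90909486-90932961, plus strand), was at 0.742, 1.02 and 0.983 FPKM in Bgal libraries 1 to 3 and at 1.57, 1.21 and 1.601 FPKM in Trim28 libraries 1 to 3. Its groups did not overlap, with a rise of 1.596-fold from 0.915 ± 0.1503 to 1.46 ± 0.219 FPKM (log2 difference of 0.36, SE 0.12, 95% interval 0.08 to 0.64, limma adjusted p = 0.0475). It passed in 4 of 14 settings. Left out singly, Bgal replicates 1, 2 and 3 gave limma adjusted p of 0.145, 0.071 and 0.0834, and Trim28 replicates 1 and 3 gave 0.128 and 0.114.

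The 3 Cfap genes that fell had higher levels than the 3 that rose. In none did the groups overlap, which a choice by the test favours. Cfap298, which is needed to assemble dynein arms (ENSRNOG00000021399, chr11:31094084-31103520, minus strand), was at 20.9, 20.3 and 24.1 FPKM in Bgal libraries 1 to 3 and at 16.5, 16.6 and 14.8 FPKM in Trim28 libraries 1 to 3. Its mean was 1.36-fold lower, at 21.8 ± 2.06 against 15.97 ± 1.03 FPKM (log2 difference of -0.42, SE 0.08, 95% interval -0.61 to -0.23, limma adjusted p = 0.00513). Cfap20, a protein of the junction between the doublet's tubules (ENSRNOG00000042179, chr19:10024947-10038784, plus strand), was at 19.7, 20.3 and 21.6 FPKM in Bgal libraries 1 to 3 and at 16.9, 15.8 and 17.9 FPKM in Trim28 libraries 1 to 3. It was 1.22-fold lower, at 20.5 ± 0.946 against 16.9 ± 1.02 FPKM (log2 difference of -0.27, SE 0.06, 95% interval -0.42 to -0.12, limma adjusted p = 0.0119). Cfap298 and Cfap20 passed in all 14 settings. Cfap36, which binds the ciliary GTPase Arl3 (ENSRNOG00000003901, chr14:113618964-113644779, minus strand), was at 8.97, 8.42 and 8.55 FPKM in Bgal libraries 1 to 3 and at 5.79, 6.504 and 7.28 FPKM in Trim28 libraries 1 to 3. It was 1.33-fold lower, at 8.65 ± 0.287 against 6.52 ± 0.745 FPKM (log2 difference of -0.36, SE 0.09, 95% interval -0.57 to -0.16, limma adjusted p = 0.0136), and did not pass without Bgal replicate 1 (limma adjusted p = 0.0503).

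**Figure D3:**
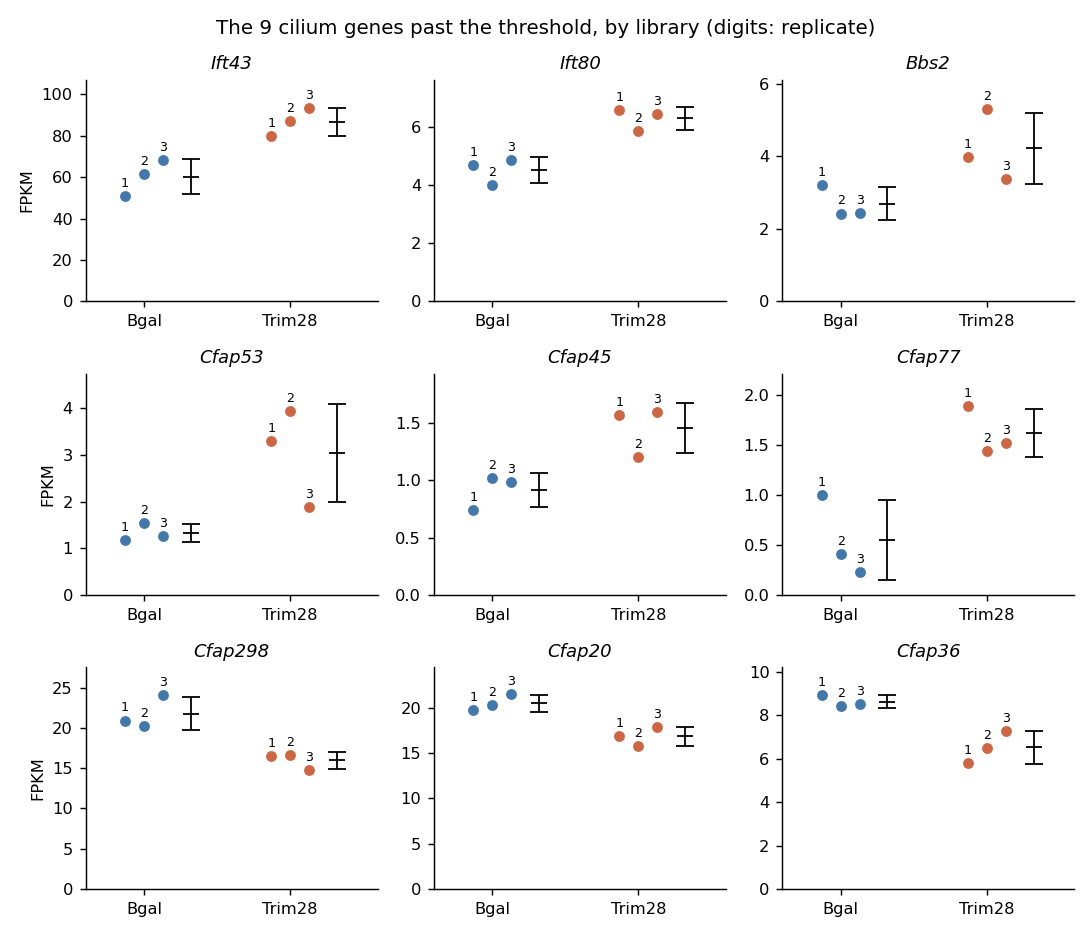
FPKM by library of the 9 genes past the threshold (points, with the replicate number above each), with the group mean and SD beside them in black, on axes that start at 0. In each of the 9 genes the 3 Trim28 libraries lie wholly above or wholly below the 3 Bgal libraries. The genes were picked by this same comparison, which favours such a gap. Over all tested genes, 26.0% lay wholly above and 27.7% wholly below.

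The 7 tested Cfap genes that did not pass covered levels from under 1 to above 7 FPKM. Cfap126, known as Flattop, which helps to place basal bodies, was at 7.48 ± 0.886 against 7.72 ± 0.599 FPKM, limma adjusted p = 0.756. Cfap97, Cfap157, Cfap410 and Cfap300 had log2 differences of -0.14 to 0.07. Cfap69, of the central apparatus, and Cfap70, linked to the outer dynein arm, had differences of 0.29 and 0.10. Among the 14 untested Cfap genes, Cfap100 had 24 to 35 reads per library and the other 13 had at most 14. Cfap206, Cfap74, Cfap221 and Cfap65 had no read in any Bgal library and at most 3 in a Trim28 library, too few to compare. Cfap97d1 also had no read in Bgal libraries, and had 4, 1 and 2 reads in Trim28 libraries 1 to 3. It did not pass in limma on FPKM without the filter (adjusted p = 0.084). Dusp3 overlaps it on the opposite strand, at 17.6 ± 1.18 against 20.4 ± 1.2 FPKM.

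No dynein arm gene passed the FPKM test, and 13 of the 15 were too low to enter it. The light chain genes were the exceptions in level: Dnal4 was at 5.43 ± 0.279 against 6.002 ± 1.03 FPKM, limma adjusted p = 0.455, and Dnal1, of the outer arm, was at 4.204 ± 0.177 against 4.72 ± 0.398 FPKM, limma adjusted p = 0.242. The heavy chain genes are long, 10410 to 14534 bases in the deposited table, so that even a low FPKM can rest on many reads. Dnah17, a heavy chain of the outer arm known from sperm tails (ENSRNOG00000003028, chr10:107029466-107158997, minus strand), had 170, 173 and 205 reads in Bgal libraries 1 to 3 and 91, 53 and 67 reads in Trim28 libraries 1 to 3. All 3 Trim28 libraries were below every Bgal library. Its FPKM was 0.412 ± 0.0504 against 0.188 ± 0.0477, which is 2.19-fold lower, and limma-voom called it (log2 difference -1.14, SE 0.22, 95% interval -1.62 to -0.65, adjusted p = 0.00179). Limma on FPKM without the filter also did (adjusted p = 0.0257). Dnah17 is overlapped on the opposite strand by Pgs1, at 17.9 ± 1.31 against 18.6 ± 1.57 FPKM, and no source used here tells how reads of the pair were told apart.

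The other heavy chains gave no call. Dnah8 had 41, 33 and 54 reads in Bgal and 49, 40 and 36 reads in Trim28 libraries, with overlapping groups (limma-voom adjusted p = 0.565). Dnah11, of the outer arm of motile cilia, had 45, 37 and 50 reads in Bgal and 25, 20 and 17 reads in Trim28 libraries. Its groups did not overlap, and it did not pass in limma-voom (log2 difference -0.83, 95% interval -1.55 to -0.11, adjusted p = 0.0614). Dnah1, Dnah7, Dnah2, Dnah9, Dnah12 and Dnah6 had 0 to 38 reads per library.

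Dnah5, the outer arm heavy chain most often mutated in immotile cilia, had 0, 2 and 4 reads in Bgal and 2, 1 and 20 reads in Trim28 libraries, so most of its reads came from Trim28 library 3. The outer arm intermediate chains were similarly sparse. Dnai1 had 0, 0 and 0 and then 4, 2 and 0 reads, and Dnai2 had 0, 0 and 2 and then 10, 2 and 4 reads. Dnali1, of the inner arm, had 0, 2 and 4 reads in Bgal and 0, 0 and 0 in Trim28 libraries. At this depth no difference was detectable in these 4 genes. The multiciliated cell markers were as low, with a sum over 8 genes of 0.276 to 0.702 FPKM in Bgal and 0.644 to 1.04 FPKM in Trim28 libraries, and Mcidas at 0 in all 6.

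**Figure D4:**
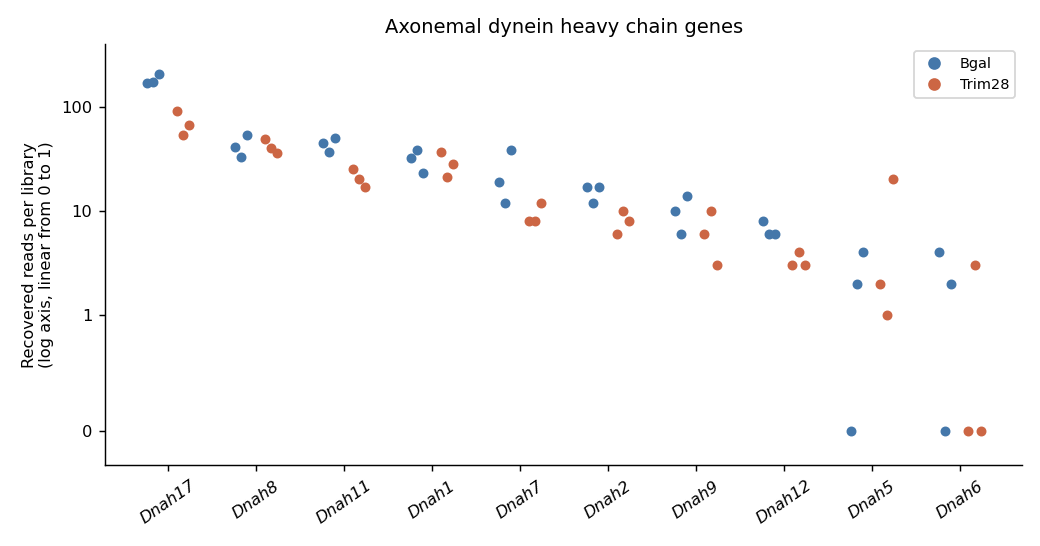
Recovered reads per library for the 10 axonemal dynein heavy chain genes, on a log axis that is linear from 0 to 1, with Bgal libraries in blue and Trim28 libraries in orange. Dnah17 stands above the rest with 170 to 205 reads in Bgal and 53 to 91 reads in Trim28 libraries.

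Genes of the same machinery, its regulators and the Hedgehog pathway that do not carry these symbols were read from lists of 152 genes. Of these, 97 were tested: 15 rose, 11 fell and 71 did not pass, with a median log2 difference of 0.01. The regulator list held 4 of the 15 that rose and 0 of the 11 that fell, and the Hedgehog list 6 and 1. Over all 97, 15.5% were higher and 11.3% lower, against 20.1% and 21.1% of all tested genes. Limma-voom tested 111 of the 152 and called 21 higher and 14 lower, against 21.2% and 21.0%. Among the other transport genes, 0 of 18 tested rose and 4 fell, or 22.2%, close to the 21.1% of all tested genes that were lower. Tctex1d2, a light chain of the returning dynein motor, was at 5.02 ± 0.883 against 2.55 ± 0.461 FPKM, limma adjusted p = 0.00457. Traf3ip1, the IFT-B subunit, was at 4.41 ± 0.118 against 2.84 ± 0.443 FPKM, limma adjusted p = 0.00806. The kinesin subunit genes Kifap3 and Kif3b were at 10.04 ± 0.538 against 7.62 ± 0.793 FPKM, limma adjusted p = 0.0125, and at 9.81 ± 0.2098 against 8.48 ± 0.238 FPKM, limma adjusted p = 0.0359. Kif3b passed in 7 of 14 settings and in none that left out a library, where its limma adjusted p was 0.0636 to 0.0975.

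Among 15 BBSome partners, 0 rose and 3 fell, again near the 21.1% of all tested genes that were lower. Pde6d, which carries lipid-anchored proteins to cilia, was at 22.6 ± 1.25 against 17.1 ± 2.03 FPKM, limma adjusted p = 0.0117. Rab8a, a GTPase of ciliary membrane traffic, was at 30.2 ± 1.83 against 25.1 ± 1.23 FPKM, limma adjusted p = 0.0138. Mkks, a chaperonin-like BBS gene, was at 18.5 ± 1.81 against 14.6 ± 1.52 FPKM, limma adjusted p = 0.0323. Mkks passed in 9 of 14 settings, with limma adjusted p of 0.093, 0.0978, 0.0899 and 0.054 without Bgal replicates 1 and 3 and Trim28 replicates 1 and 2. Rab8a did not pass without Bgal replicate 1 (0.052) or Trim28 replicate 1 (0.0509). Bbip1, the small BBSome subunit, was at 18.7 ± 2.21 against 14.02 ± 3.83 FPKM, limma adjusted p = 0.0904, and did not pass. The transition zone and basal body appendage list had 4 that rose (17.4%) and 2 that fell (8.70%) of 23 tested, no more than over all tested genes. Ahi1, a transition zone protein, rose (5.12 ± 0.196 against 7.49 ± 0.114 FPKM, limma adjusted p = 0.00146), as did Tmem231 (0.6401 ± 0.0673 against 1.67 ± 0.1903 FPKM, limma adjusted p = 0.00219) and Nphp4 (0.8999 ± 0.07204 against 1.801 ± 0.135 FPKM, limma adjusted p = 0.00408), and Cep83, of the distal appendages, fell (12.5 ± 0.853 against 8.62 ± 0.944 FPKM, limma adjusted p = 0.00432).

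Of 44 other axoneme genes, 9 were tested, of which 1 rose and 1 fell (11.1% each). Drc3, of the complex that links doublets, fell (7.15 ± 0.202 against 3.08 ± 0.0836 FPKM, limma adjusted p = 0.000112), and Spef1, a microtubule bundling protein, rose (3.48 ± 0.613 against 6.21 ± 0.587 FPKM, limma adjusted p = 0.00357). Gas8 and Ccdc65, of the same linking complex as Drc3, were at 1.11 ± 0.2199 against 1.48 ± 0.173 FPKM, limma adjusted p = 0.155, and at 2.22 ± 0.2797 against 2.63 ± 0.151 FPKM, limma adjusted p = 0.207. Limma-voom tested 16 of the 44 and called 3 higher and 1 lower, against 21.2% and 21.0% of all genes it tested. Besides Spef1, the higher ones were Enkur, with 2, 0 and 6 reads in Bgal and 25, 10 and 21 reads in Trim28 libraries (adjusted p = 0.00655), and Tekt1, with 1, 0 and 10 and then 8, 10 and 18 reads (adjusted p = 0.0267). The groups did not overlap in Enkur and did in Tekt1. Enkur entered limma-voom only through its reads in Trim28 libraries, which favours a higher call. Limma on FPKM without the filter called Enkur (adjusted p = 0.0224) and Nme5 (0.0177), which had no read in Bgal libraries and 11, 10 and 5 reads in Trim28 libraries. These 3 genes were named after their values had been seen. None of 9 tested dynein assembly factors passed, and the smallest limma adjusted p was that of Zmynd10 (0.0766, at 1.67 ± 0.257 against 1.15 ± 0.194 FPKM).

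The list of ciliary gene regulators held the gene with the widest gap of these lists. Rfx2 was at 0.669, 1.203 and 0.7803 FPKM in Bgal libraries 1 to 3 and at 12.2, 12.4 and 11.5 FPKM in Trim28 libraries 1 to 3. The groups lay far apart, with a 13.6-fold rise (log2 difference of 2.80, SE 0.12, 95% interval 2.53 to 3.07, limma adjusted p = 1.8e-05). Rfx3 (1.39 ± 0.217 against 2.07 ± 0.0908 FPKM, limma adjusted p = 0.0283), Rfx1 (5.71 ± 0.323 against 7.105 ± 0.527 FPKM, limma adjusted p = 0.0303) and E2f4 (15.4 ± 0.983 against 18.03 ± 0.763 FPKM, limma adjusted p = 0.033) rose as well. In this list 4 of 10 tested genes rose and 0 fell, against 20.1% and 21.1% of all tested genes. The list took in RFX genes by family, Rfx5, Rfx7 and Rfxank among them, whether or not they act on ciliary genes. It was chosen with earlier results of these data known, so its share is not an independent count. Rfx2 passed in all 14 settings, Rfx3 in 8 of 14, Rfx1 in 8 of 14 and E2f4 in 9 of 14. Leaving out any single library other than Bgal replicate 3 ended the call of Rfx3 (limma adjusted p 0.0609 to 0.0835), and any other than Trim28 replicate 3 ended that of Rfx1 (0.0567 to 0.098). E2f4 did not pass without Bgal replicate 1 or 3 or Trim28 replicate 1 or 2 (0.08 to 0.107). Foxj1, the main activator of motile cilium genes, was looked for by symbol and not found in the deposited table, so its level could not be read. The multiciliated marker sum also lacks it. In the Hedgehog list, 6 of 13 tested genes rose (46.2%, against 20.1% of all tested genes) and 1 fell (7.69%, against 21.1%). Gas1, a co-receptor, was at 12.2 ± 2.02 against 34.95 ± 3.26 FPKM, limma adjusted p = 0.000187. Smo, the signal transducer that enters cilia, was at 4.86 ± 0.115 against 7.52 ± 0.872 FPKM, limma adjusted p = 0.00307, Gpr161, a ciliary receptor that restrains the pathway, was at 0.836 ± 0.247 against 1.999 ± 0.1404 FPKM, limma adjusted p = 0.00378, and the co-receptor Boc was at 12.3 ± 0.816 against 9.13 ± 0.651 FPKM, limma adjusted p = 0.00602. Gli1 lay under the filter, at 0.306 ± 0.09 against 0.316 ± 0.0971 FPKM (limma-voom adjusted p = 0.872). Ptch1, at 3.39 ± 0.125 against 3.99 ± 0.115 FPKM, did not pass in limma (adjusted p = 0.0927) but was higher in limma-voom (adjusted p = 0.0234). Activity of the pathway was not tested. The fibroblast and mural marker sums given above were higher in the same Trim28 libraries, and their part in the differences of these lists was not tested.

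**Figure D5:**
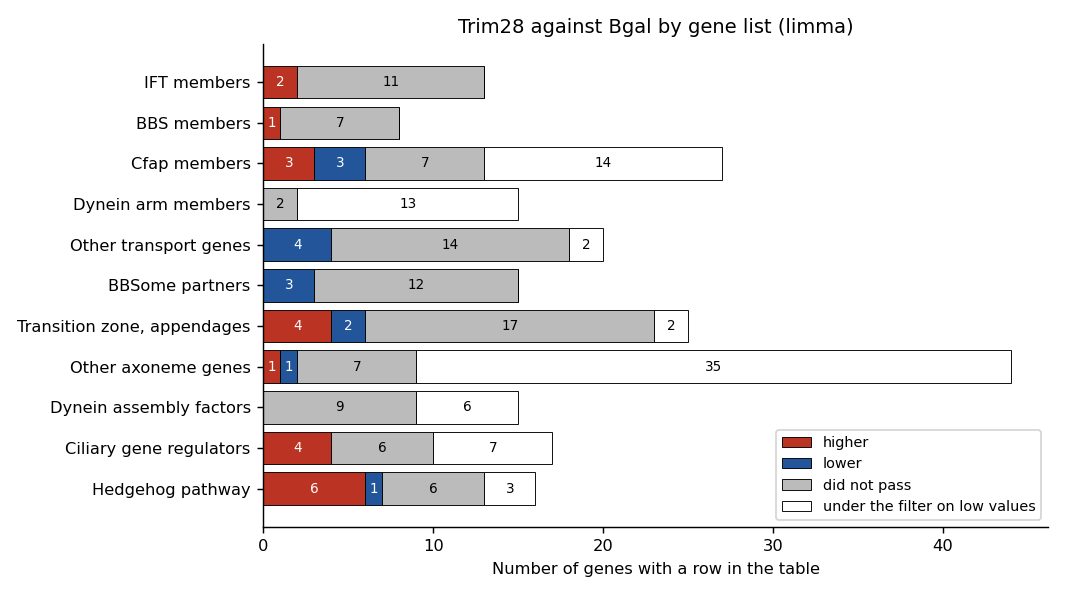
Number of genes in each list that were higher, lower or did not pass in limma, or that lay under the filter on low values, as stacked bars that start at 0. Over all tested genes 20.1% were higher and 21.1% lower. The 4 of 18 other transport genes and 3 of 15 BBSome partners that were lower lie near that share, and 0 of either list were higher. Of tested genes, 4 of 10 regulators and 6 of 13 Hedgehog genes were higher, above the 20.1%. The lists were chosen with earlier results of these data known.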

How the data were processed

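Poly(A) RNA of 3 Bgal and 3 Trim28 libraries was sequenced. The authors deposited FPKM values per gene, per the file headers, without pooling. The submitters' processing notes name HISAT2 2.0.5 and DESeq2. The build, annotation, counter and strand setting are named in no source used here. FPKM depends on gene length and the library total, so a very abundant transcript lowers all others.

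Reads were recovered from FPKM multiplied by gene length, and 100% of values were whole within 0.01. They totalled 26146166 to 34593292 per library, and 1 read on a gene of 1 kilobase was worth 0.0281 to 0.0381 FPKM. Limits from counts cover counting error only. The 14808 genes that reached 0.5 FPKM in 3 or more libraries were compared as log2(FPKM + 1), which understates changes of low genes, with limma 3.58.1 in R 4.3.3, an intensity trend and Benjamini-Hochberg adjustment at 0.05, two-sided. Folds are ratios of mean FPKM, and errors are SD over 3 libraries. The limma step was tested on simulated data. Alternatives were another pseudocount, other filters, median centring, each library left out, the replicate number as a block, and limma-voom on recovered reads with TMM scaling.

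The named genes were every member past the threshold, the 3 with the highest mean in each group, a few fixed members, and up to 4 genes of each related list by p. Other genes with values were named after these had been seen. The members and lists were chosen with earlier results of these data known. Promoters were matched to RefSeq by symbol, and 1 matching sequence is not reported here.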

Additional observations from a re-analysis of the deposited data

How the results depend on the processing

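Under 13 alternatives to the FPKM test, no cilium gene and no related gene changed direction past the threshold. Of the 9 calls, Ift43, Ift80, Cfap77, Cfap298 and Cfap20 passed in every setting. Cfap77 entered the FPKM test through its level in Trim28 libraries, which favours a higher call. The 6 higher genes became 3 without Trim28 replicate 1, and leaving out each library in turn gave 3 to 5 higher and 2 to 3 lower genes. The 3 lower genes became 5 with median centring, which added Ift46 and Ift140, and 6 with limma-voom on recovered reads. The cause was not tested. The related lists gave 10 to 15 higher and 8 to 13 lower genes with a library left out, against 15 and 11. Depth limits the Dnah and Dnai genes: apart from Dnah17, Dnah8, Dnah11 and Dnah1, each had fewer than 10 reads in at least 1 library.

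Libraries of both groups share the replicate numbers 1 to 3, but same-numbered libraries did not deviate together (correlations of -0.02, 0.13 and 0.01), so the numbers were not taken as pairs. With the replicate number as a block, 4 cilium genes were higher and 3 lower, and 17 related genes were higher and 11 lower. Bbs2 and Cfap45 did not pass with the block.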
